A study of Mus musculus with 12 samples.

Results

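The genes described here are 5 subunits of NADPH oxidases, Cybb, Cyba, Ncf1, Ncf4 and Nox4, and 4 enzymes that clear reactive oxygen species, Sod1, Sod2, Cat and Gpx1. They were taken by name from the 19937 genes of the array that have a probe set with exactly 1 gene symbol. Each of the 9 genes had 1 such probe set, so that no choice between probe sets was needed. Their RNA was measured in 12 prostate tumours. One line of mouse prostate carcinoma, TRAMP-C2Re3, gave rise to all of them, and 50000 of its cells were placed in the prostate of each host. The hosts were C57BL6 mice, 6 of them p62 KO and 6 wild type (WT), and the tumours were collected after 60 days. Host ages were not given in the sources used here. The protein p62, encoded by Sqstm1, carries cargo to autophagosomes and links signalling proteins. Both groups received the same injected cells, so that the groups differ in the genotype of the host cells within the tumour. RNA came from whole tumours, in which fewer cells of a type and less RNA per cell cannot be told apart.

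NADPH oxidases move electrons from NADPH across a membrane to oxygen and so make superoxide. The phagocyte enzyme has a membrane core of gp91phox (Cybb) and p22phox (Cyba), and is switched on when cytosolic subunits, among them p47phox (Ncf1) and p40phox (Ncf4), join it with a Rac GTPase. Nox4 is a relative of gp91phox found in cell types such as fibroblasts, endothelium and smooth muscle. It also pairs with p22phox but does not need the cytosolic subunits, and it releases mainly hydrogen peroxide. Superoxide is turned into hydrogen peroxide by superoxide dismutases, Sod1 in the cytosol and Sod2 in mitochondria. Catalase (Cat), a peroxisomal enzyme, and glutathione peroxidase 1 (Gpx1), which uses glutathione, then remove the peroxide.

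RefSeq promoter sequences of build GRCm38.p6 were found for 8 of the 9 genes, each window running from 250 bases before the gene's start to 50 bases after it. The 250 bases before the start are given for 4 genes in 2 pairs, Cybb with Ncf1 and Cyba with Sod2. Over the 12 tumours their levels had a Pearson r of 0.87 and 0.86, and neither pair passed by Spearman rho. Without the 4 arrays of narrowest spread, described below, r was 0.35 and 0.79. Capitals mark CCAAT boxes (CCAAT), GC boxes (GGGCGG) and the core bound by the myeloid factor PU.1 (GAGGAA), searched on both strands.
Cybb, chrX:9469325-9469574, minus strand: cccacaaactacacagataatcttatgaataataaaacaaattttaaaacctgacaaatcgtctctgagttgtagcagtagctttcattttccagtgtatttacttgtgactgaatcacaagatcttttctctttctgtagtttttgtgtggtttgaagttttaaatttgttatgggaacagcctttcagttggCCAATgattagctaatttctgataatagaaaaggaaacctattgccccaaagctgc
Ncf1, chr5:134229626-134229875, minus strand: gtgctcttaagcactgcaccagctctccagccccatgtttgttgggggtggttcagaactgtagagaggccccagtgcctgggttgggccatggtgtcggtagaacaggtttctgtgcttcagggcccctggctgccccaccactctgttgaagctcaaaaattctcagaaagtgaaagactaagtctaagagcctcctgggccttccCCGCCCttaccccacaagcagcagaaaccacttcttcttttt
Cyba, chr8:122432941-122433190, minus strand: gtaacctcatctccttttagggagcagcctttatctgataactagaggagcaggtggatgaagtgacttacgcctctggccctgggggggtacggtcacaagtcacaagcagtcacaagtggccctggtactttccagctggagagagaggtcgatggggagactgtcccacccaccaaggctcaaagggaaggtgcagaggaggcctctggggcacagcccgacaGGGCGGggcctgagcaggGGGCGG
Sod2, chr17:13007589-13007838, plus strand: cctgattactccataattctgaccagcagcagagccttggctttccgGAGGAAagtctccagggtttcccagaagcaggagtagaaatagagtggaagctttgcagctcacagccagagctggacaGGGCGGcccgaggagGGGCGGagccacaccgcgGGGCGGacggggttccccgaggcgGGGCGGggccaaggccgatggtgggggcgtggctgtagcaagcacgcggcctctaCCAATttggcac
The Cybb stretch was poor in G and C, at 34.0%, against 54.4% for Ncf1, 60.0% for Cyba and 63.6% for Sod2. It held 1 CCAAT box and no GC box, whereas that of Sod2 held 4 GC boxes and that of Cyba 2. The only PU.1 core in the Cybb window lay just after the start, on the opposite strand, from base 10 to base 15, in the following 30 bases.
Cybb core, chrX:9469298-9469327, minus strand: tgctgttttcatTTCCTCatcagaagaaga
The PU.1 core was present in 28.3% of all 32851 promoter windows, and among the 8 genes in those of Cybb, Sod2 and Cat. A GC box, present in 35.7% of all windows, was found in 7 of the 8, all but Cybb. A CCAAT box, present in 37.4%, was found in Cybb, Sod1, Sod2 and Cat. The antioxidant response element (TGACNNNGC), present in 12.4%, was found in Sod1 alone. These matches describe letters within the windows and no binding was measured.

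The series as a whole set limits on what the 9 genes can show. Across 28192 tested probe sets, limma called 1 probe set at an adjusted p under 0.05, or 0.00355%, and 675, or 2.39%, had an unadjusted p under 0.05. The arrays of KO hosts 2 and 3 and of WT hosts 2 and 5 had the narrowest interquartile ranges, 2.15 to 2.59 on the log2 scale against 2.70 to 2.95 in the other 8. Differences that rest on these 4 tumours are given with and without them for the 9 genes, and for other genes where they moved most. Removing KO hosts 2 and 3 alone is unbalanced, since WT hosts 2 and 5 then stay in. Sqstm1 stood at 8.73 ± 0.39 (SD, n = 6) in KO-host tumours and 8.89 ± 0.23 (SD, n = 6) in WT-host tumours, which does not check the genotype because the injected cells carry their own copy. The epithelial gene Krt8 averaged 8.12 in KO-host tumours and 8.10 in WT-host tumours, above the array medians of 6.21 to 6.44. The epithelial adhesion gene Epcam, chosen after its values were seen, averaged 4.61 and 4.59, below the lower quartiles of 4.85 to 5.36.

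None of the 9 genes passed the test between host genotypes. In limma 0 of 9 were called at an adjusted p under 0.05 and 0 of 9 had an unadjusted p under 0.05, against 0.00355% and 2.39% of all tested probe sets (1.28% higher and 1.11% lower at an unadjusted p under 0.05). None had an unadjusted p under 0.05 either without KO hosts 2 and 3, without the 4 narrow arrays, with array weights or with the interquartile range as a covariate, where 7.72%, 5.09%, 6.52% and 6.85% of all probe sets did. In other alternatives Nox4 alone did. Its unadjusted p in limma was 0.0189 with the replicate number as a block. Without KO host 5, KO host 6 or WT host 1 it was 0.00785, 0.0294 and 0.0452. In these 4 settings 1.86%, 3.02%, 2.82% and 1.75% of all probe sets did, and Nox4 had adjusted p of 0.8937 to 0.9992. The groups overlapped in all 9, where 0.145% of all probe sets had groups that did not overlap. The oxidase subunits had 3 higher and 2 lower values in KO-host tumours and a median difference of 0.05 on the log2 scale. The clearing enzymes had 3 higher and 1 lower and a median difference of 0.07. Over all probe sets 57.2% were higher and the median difference was 0.02, so that neither group of genes stood away from the background in its median. Differences ran from -0.42 to 0.11 among the subunits, with Cybb and Nox4 the 2 below 0, and from -0.10 to 0.08 among the clearing enzymes. Without the 4 narrow arrays they ran from -0.20 to 0.08 and from -0.04 to 0.11.

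**Figure D1:**
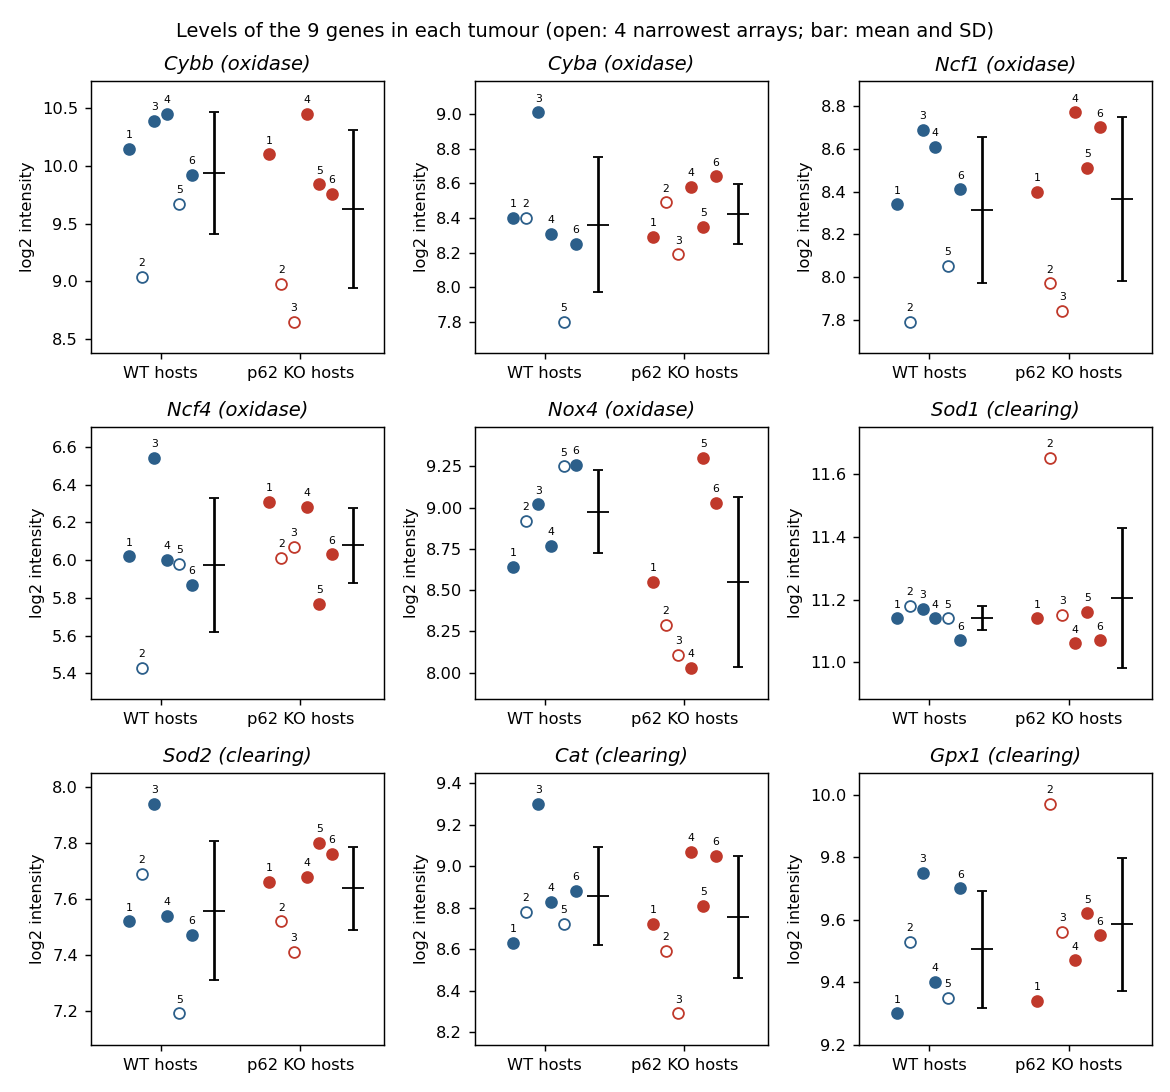
Log2 intensity of each of the 9 genes in the 12 tumours, with WT hosts in blue, p62 KO hosts in red, the mouse number above each point, and bars for the mean and SD of 6 tumours. Open circles mark the 4 narrowest arrays, which hold the 4 lowest values of Cybb and of Ncf1, while the host groups overlap in every panel.

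Cybb, the catalytic core of the phagocyte oxidase, varied most among the 9 genes. Its log2 level in KO-host tumours had a lowest value of 8.65, a median of 9.80 and a highest value of 10.45. In WT-host tumours these were 9.04, 10.03 and 10.45. The highest values, in KO host 4 and WT host 4, were equal after rounding, with KO host 4 marginally above. The low end of each group was formed by narrow arrays, KO hosts 3 and 2 at 8.65 and 8.98 and WT host 2 at 9.04. The means were 9.63 ± 0.68 (SD, n = 6) and 9.93 ± 0.53 (SD, n = 6), a difference of -0.30 with a 95% interval of -0.97 to 0.36 (limma, adjusted p = 0.9935). The pooled SD of Cybb within groups, 0.61, was larger than that of 96.8% of probe sets. Without KO hosts 2 and 3 the difference turned to 0.10 (interval -0.44 to 0.65), and without WT hosts 2 and 5 as well it was -0.19 (interval -0.55 to 0.18).

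Cyba, the membrane partner shared by gp91phox and Nox4, lay closer together. Tumours of KO hosts ran from 8.19 through a median of 8.42 to 8.64. Tumours of WT hosts ran from 7.80 through 8.35 to 9.01, and thus enclosed all KO-host tumours. WT host 3 was the highest of all and WT host 5 the lowest. The difference was 0.06 with a 95% interval of -0.28 to 0.41 (limma, adjusted p = 0.9935), and it turned to -0.05 without WT host 5.

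Among the cytosolic subunits, Ncf1, the organiser that carries the others to the membrane, ran from 7.84 through a median of 8.45 to 8.77 in KO-host tumours. In WT-host tumours it ran from 7.79 through 8.37 to 8.69. The 2 ranges nearly coincided. The 4 narrow arrays, at 7.79 to 8.05, lay below the other 8 tumours, at 8.34 to 8.77, in both groups. Its difference was 0.05 with an interval of -0.36 to 0.46 (limma, adjusted p = 0.9942). This sign was not stable, since without WT host 2, WT host 5, KO host 4 or KO host 6 it lay between -0.05 and 0.00. Leaving out KO hosts 2 and 3 gave 0.28 (interval -0.08 to 0.64), and leaving out all 4 narrow arrays gave 0.08 (interval -0.17 to 0.33).

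Ncf4, which encodes the lipid-binding subunit p40phox, had levels from 5.77 through a median of 6.05 to 6.31 in KO-host tumours. In WT-host tumours they ran from 5.43 through 5.99 to 6.54. These levels lie below the array medians of 6.21 to 6.44 in most tumours. WT hosts 2 and 3 marked the ends of the range, as the lowest and highest of all 12. The difference was 0.11 with an interval of -0.23 to 0.44 (limma, adjusted p = 0.9935). It was 0.00 without WT host 2 and 0.22 without WT host 3.

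Nox4 had the largest difference of the 9 genes and still did not pass. Its log2 level in KO-host tumours had a lowest value of 8.03, a median of 8.42 and a highest value of 9.30. In WT-host tumours these were 8.64, 8.97 and 9.26. KO hosts 1 to 4, at 8.03 to 8.55, lay below all WT-host tumours, whereas KO host 5 was the highest of the 12 and KO host 6, at 9.03, lay within the WT range. The means were 8.55 ± 0.51 (SD, n = 6) and 8.98 ± 0.25 (SD, n = 6), a difference of -0.42, or 1.34-fold lower, with a 95% interval of -0.88 to 0.03 (limma, unadjusted p = 0.064, adjusted p = 0.9935). It was larger in size than the differences of 98.4% of probe sets. Leaving out each tumour in turn gave differences from -0.57 (without KO host 5) to -0.32 (without KO host 4), all of the same sign. Without KO hosts 2 and 3 it was -0.25 (interval -0.73 to 0.23), and without all 4 narrow arrays -0.20 (interval -0.74 to 0.35).

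Markers of fibroblasts, smooth muscle and endothelium were read beside Nox4. The mean level of 10 fibroblast genes was 9.41 ± 0.23 (SD, n = 6) in KO-host tumours and 9.44 ± 0.14 (SD, n = 6) in WT-host tumours, with 4 genes higher and 6 lower. The pericyte and fibroblast receptor Pdgfrb differed by -0.16 (interval -0.48 to 0.16). The 6 smooth muscle genes stood at 6.43 ± 0.13 and 6.37 ± 0.13 (SD, n = 6 each), and among them the actin Acta2 differed by -0.07 (interval -0.38 to 0.24). The 10 endothelial genes averaged 7.38 ± 0.23 and 7.34 ± 0.20 (SD, n = 6 each). The part of these cells, or of the injected tumour cells, in the values of Nox4 was not tested.

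Of the clearing enzymes, Sod1 was the steadiest gene of the 9. It ran from 11.06 through a median of 11.15 to 11.65 in KO-host tumours and from 11.07 through 11.14 to 11.18 in WT-host tumours. All tumours but KO host 2, at 11.65, lay between 11.06 and 11.18. The difference of 0.06 had an interval of -0.15 to 0.28 (limma, adjusted p = 0.9935). It turned to -0.02 without KO host 2.

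Sod2, the mitochondrial dismutase, ran from 7.41 through a median of 7.67 to 7.80 in KO-host tumours. In WT-host tumours it ran from 7.19 through 7.53 to 7.94. As with Cyba, WT host 3 was the highest tumour and WT host 5 the lowest. The difference was 0.08 with an interval of -0.18 to 0.34 (limma, adjusted p = 0.9935), or 0.17 without KO hosts 2 and 3 and 0.11 without the 4 narrow arrays.

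Cat ran from 8.29 through a median of 8.77 to 9.07 in KO-host tumours and from 8.63 through 8.81 to 9.30 in WT-host tumours. KO hosts 2 and 3, at 8.59 and 8.29, were the only tumours below the WT range, and WT host 3 was the highest. The difference was -0.10 with an interval of -0.42 to 0.21 (limma, adjusted p = 0.9935). It turned to 0.06 without KO hosts 2 and 3 and was 0.00 without the 4 narrow arrays.

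Gpx1 ran from 9.34 through a median of 9.56 to 9.97 in KO-host tumours and from 9.30 through 9.46 to 9.75 in WT-host tumours. KO host 2 was again the highest, above all other tumours. The difference of 0.08 had an interval of -0.17 to 0.34 (limma, adjusted p = 0.9935) and was 0.00 without KO host 2. On the intervals of all 12 tumours, a rise or fall of more than 0.42 on the log2 scale lay outside the intervals of the 4 clearing enzymes, whereas those of Cybb and Nox4 reached to -0.97 and -0.88.

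**Figure D2:**
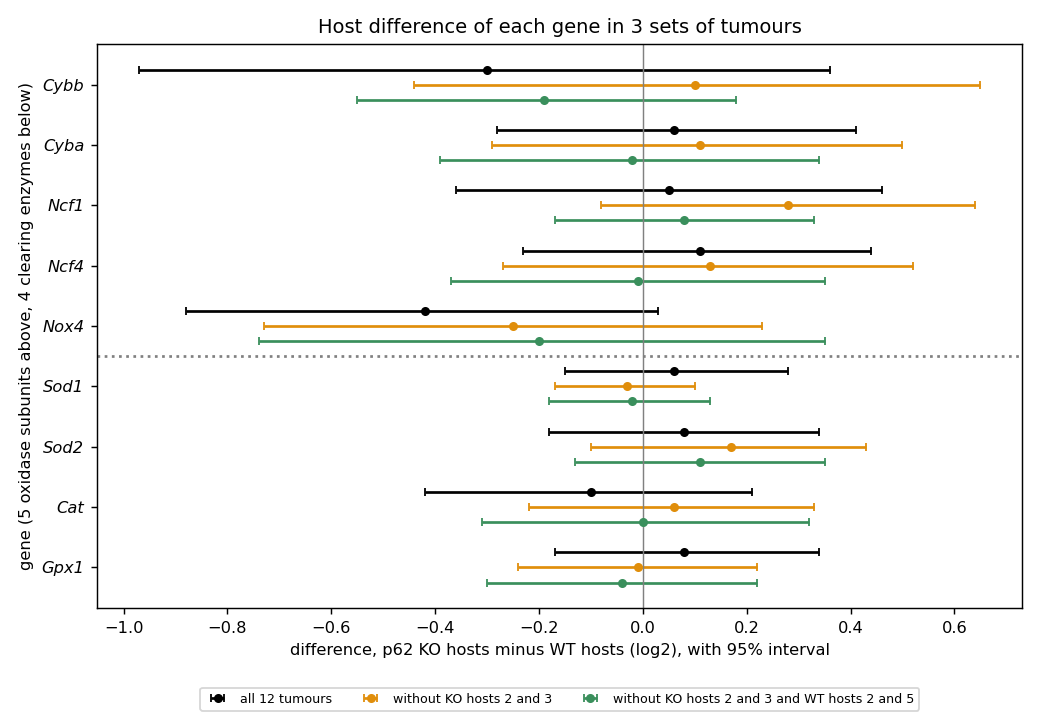
Difference between p62 KO and WT hosts (log2, horizontal axis) with its 95% interval for the 5 oxidase subunits and 4 clearing enzymes, over all 12 tumours (black), without KO hosts 2 and 3 (orange) and without these and WT hosts 2 and 5 (green). Every interval includes 0, and that of Cybb is the widest, from -0.97 to 0.36 over all 12 tumours.

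To set subunits against clearing enzymes within a tumour, each gene was expressed relative to its own mean over the 12 tumours and averaged over the 5 subunits and over the 4 enzymes. The subunits averaged -0.05 ± 0.28 (SD, n = 6) in KO-host tumours and 0.05 ± 0.27 (SD, n = 6) in WT-host tumours. The enzymes averaged 0.02 ± 0.12 and -0.02 ± 0.15 (SD, n = 6 each). The subunits minus the enzymes came to -0.07 ± 0.26 in KO-host tumours and 0.07 ± 0.22 in WT-host tumours, a difference of -0.13 that is smaller than either SD. No test was made on these averages, since the genes were chosen with earlier results known. The 3 tumours with the lowest balance were KO host 2 at -0.47, WT host 2 at -0.36 and KO host 3 at -0.31, all narrow arrays, while the other 9 tumours lay between 0.03 and 0.22. Without Nox4, the 4 phagocyte subunits averaged -0.01 ± 0.30 and 0.01 ± 0.35 (SD, n = 6 each).

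**Figure D3:**
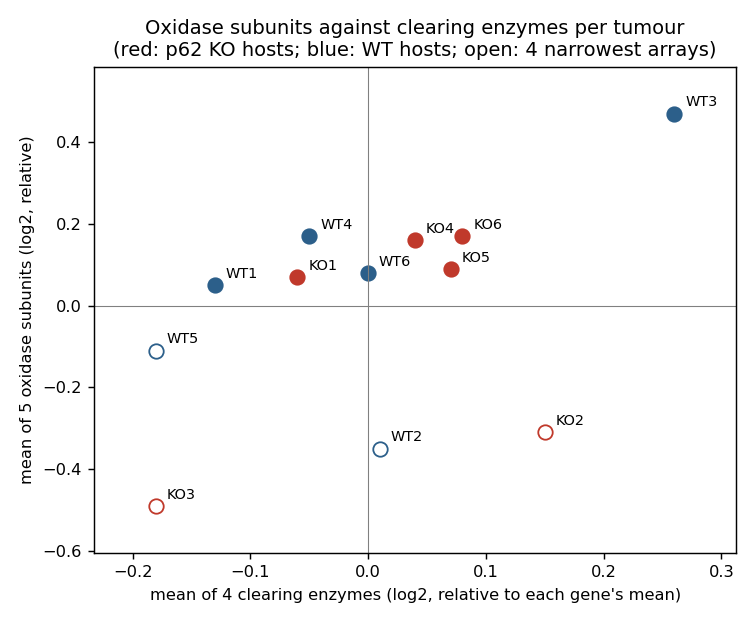
Mean of the 5 oxidase subunits (vertical axis) against that of the 4 clearing enzymes (horizontal axis) in each tumour, both in log2 relative to each gene's mean over 12 tumours, with p62 KO hosts in red, WT hosts in blue and the 4 narrowest arrays open. WT host 3 is highest on both axes, and KO host 2, KO host 3 and WT host 2 lie lowest on the vertical axis, at -0.31, -0.49 and -0.35.

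Tumour by tumour, some of the genes ran together. Pearson r and Spearman rho were computed for 36 pairs of the 9 genes, 72 relations of a gene to the mean of a marker list and 9 to the interquartile range of the array, with permutation p-values adjusted over all 117. Of the 36 pairs, 3 passed by r, and 1 of them, Ncf1 with Cat, also by rho. Cybb and Ncf1 had r = 0.87 (adjusted permutation p = 0.0078) and rho = 0.76 (adjusted permutation p = 0.0962) over the 12 tumours. Without the 2 tumours farthest from the median of Cybb r was 0.81, but over the 8 tumours outside the narrow arrays it was 0.35. The narrow arrays held the 4 lowest values of both genes, so that leaving them out also cut the range of each. Their part in this relation was not tested. Cyba and Sod2 had r = 0.86 (adjusted permutation p = 0.0124) and rho = 0.73 (adjusted permutation p = 0.1), with 0.56 without the 2 farthest tumours, WT hosts 3 and 5, and 0.79 over the other 8. Ncf1 and Cat had r = 0.77 (adjusted permutation p = 0.0224) and rho = 0.83 (adjusted permutation p = 0.0304), and kept 0.80 and 0.83 in these sets. Sod1 and Gpx1 had r = 0.65 over 12 tumours (adjusted permutation p = 0.215) and -0.06 over the other 8. Nox4 and Cybb had r = 0.20 and rho = -0.06 over 12 tumours. For this pair r was -0.48 without KO hosts 2 and 3 and -0.64 over the other 8, so that its sign depended on the measure and on the tumours included.

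**Figure D4:**
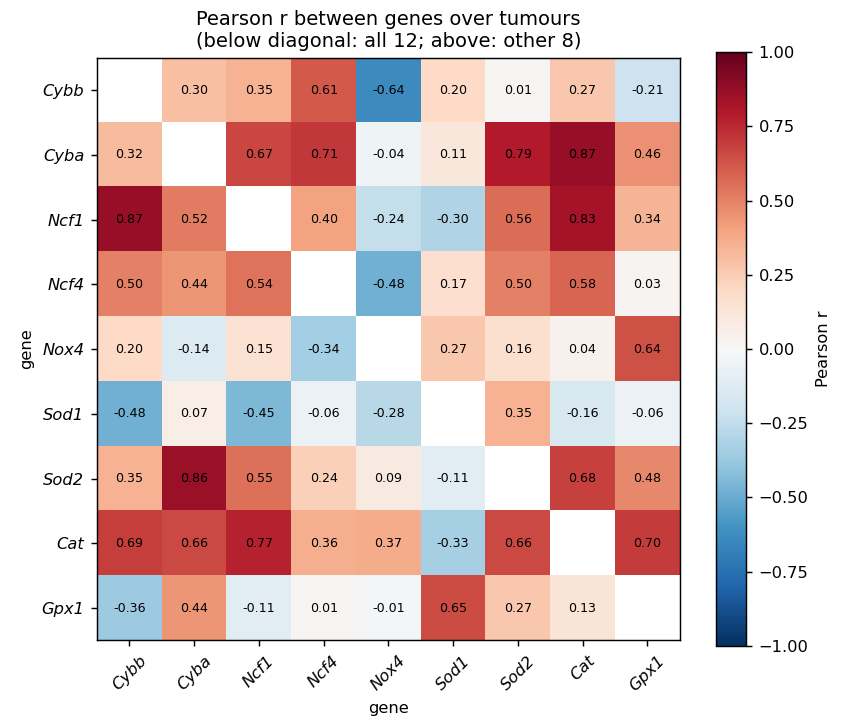
Pearson r between each pair of the 9 genes, below the diagonal over all 12 tumours and above it over the 8 tumours outside the 4 narrowest arrays; red is positive and blue negative. The pair of Cybb and Ncf1 falls from 0.87 to 0.35, whereas Ncf1 with Cat has 0.77 and 0.83.

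Of the 4 phagocyte subunits, Cybb and Ncf1 passed in their relation to the leukocyte genes, and Cyba and Ncf4 did not. The mean of 7 genes shared by leukocytes, such as the phosphatase Ptprc (CD45), had r = 0.78 with Cybb (adjusted permutation p = 0.0224, rho = 0.87 with adjusted p = 0.0199), and the value was 0.73 without the 2 farthest tumours and 0.81 over the 8 other tumours. With Ncf1 it had r = 0.80 (adjusted permutation p = 0.0078, rho = 0.77 with adjusted p = 0.0962), or 0.66 and 0.52 in these sets. The mean of 15 macrophage markers had r = 0.87 with Ncf1 (adjusted permutation p = 0.0078, rho = 0.84 with adjusted p = 0.0304), or 0.73 and 0.74, and r = 0.74 with Cybb (adjusted permutation p = 0.0579), or 0.36 and 0.14. Cyba, which many cell types express, had r = 0.30 with the leukocyte mean (adjusted permutation p = 0.543) and 0.39 with the macrophage mean. Ncf4 had 0.69 with the leukocyte mean (adjusted permutation p = 0.117). Nox4 had -0.03 with the leukocyte mean, -0.02 with the fibroblast mean, 0.44 with the endothelial mean and 0.29 with the smooth muscle mean, none of which passed. Over the 8 tumours outside the narrow arrays these were -0.50, -0.53, 0.60 and 0.82. Epithelial genes ran the other way, with r = -0.85 to Cybb (adjusted permutation p = 0.0078), -0.80 to Ncf1 (0.0224) and -0.79 to Cat (0.0224). Their rho had adjusted p of 0.0962, 0.125 and 0.146. Without the 2 farthest tumours r was -0.73, -0.72 and -0.49, and over the 8 tumours it was -0.33, -0.16 and -0.52. The narrow arrays held the highest levels of the epithelial mean, at 6.28 to 6.49 against 5.91 to 6.23 in the 8 other tumours. Their part in these relations was not tested.

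No gene of the leukocyte, macrophage or neutrophil lists was called between hosts. The 7 leukocyte genes averaged 8.87 ± 0.17 in KO-host tumours and 8.81 ± 0.33 in WT-host tumours (SD, n = 6 each), with ranges of 8.56 to 9.07 and 8.19 to 9.06. Ptprc differed by -0.07 (interval -0.53 to 0.39). The 15 macrophage genes averaged 9.24 ± 0.22 and 9.15 ± 0.21 (SD, n = 6 each), with 13 higher and 0 called. Over all probe sets 57.2% were higher and 0.00355% were called. Among the macrophage genes the receptor Csf1r differed by 0.19 (interval -0.21 to 0.59). The macrophage surface gene Adgre1 differed by -0.13 (interval -0.76 to 0.50, or 0.27 without KO hosts 2 and 3). The 15 neutrophil genes, another cell type that carries this oxidase, averaged 5.88 ± 0.29 and 5.63 ± 0.16 (SD, n = 6 each), below the array medians of 6.21 to 6.44. Of these 13 were higher, where 57.2% of all probe sets were, and 0 were called. At an unadjusted p under 0.05 in limma 4 of 15 were higher, where 1.28% of all probe sets were. The neutrophil mean was highest on 2 narrow arrays, KO hosts 2 and 3, at 6.21 and 6.16, whose part in these counts was not tested. The calprotectin genes S100a9 and S100a8 differed by 0.58 and 0.43, the receptor Trem1 by 0.55 and the surface gene Ly6g by 0.44, with unadjusted p of 0.00581 to 0.0441 and adjusted p of 0.9935 in limma. Without KO hosts 2 and 3 these 4 differences, in the order given, were 0.46, 0.17, 0.41 and 0.16, and without the 4 narrow arrays 0.49, 0.23, 0.46 and 0.15. Ly6g averaged 4.66 in KO-host and 4.22 in WT-host tumours, below the arrays' lower quartiles of 4.85 to 5.36. Trem1 averaged 5.48 and 4.93. The 2 lower genes of the list were Ngp (-0.05) and Ltf (-0.04), and Camp and Retnlg differed by 0.08 each. Cybb had r = -0.66 with the neutrophil mean over 12 tumours and -0.24 over the other 8. The part of cell content in the values of the oxidase subunits was not tested.

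The spread of the arrays moved with several of the 9 genes as well. The interquartile range of the array had r = 0.89 with Ncf1 (adjusted permutation p = 0.0078, rho = 0.92 with adjusted p = 0.00936), 0.85 with Cat (adjusted permutation p = 0.0078, rho = 0.90 with adjusted p = 0.0111) and 0.84 with Cybb (adjusted permutation p = 0.017, rho = 0.64 with adjusted p = 0.205). Without KO hosts 2 and 3, the 2 farthest, r was 0.90, 0.72 and 0.59, and over the 8 tumours 0.90, 0.91 and 0.03. The part of the arrays' spread in these levels was not tested. Of all genes 8.08% had a higher r than Ncf1, 12.4% a higher one than Cat and 13.0% a higher one than Cybb, so that such values were common on these arrays. The 4 narrow arrays held the 4 lowest levels in Cybb and Ncf1, and did so in 8.18% of all genes. Cybb averaged 9.08 on them and 10.13 on the other 8, and Ncf1 7.91 and 8.55. Sod1 and Gpx1 had slightly higher means on the narrow arrays, at 11.28 against 11.12 and 9.60 against 9.52. KO host 2, at 11.65 and 9.97, was the highest tumour in both. The remaining narrow arrays lay at 11.14 to 11.18 and 9.35 to 9.56, against 11.06 to 11.17 and 9.30 to 9.75 in the other 8.

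**Figure D5:**
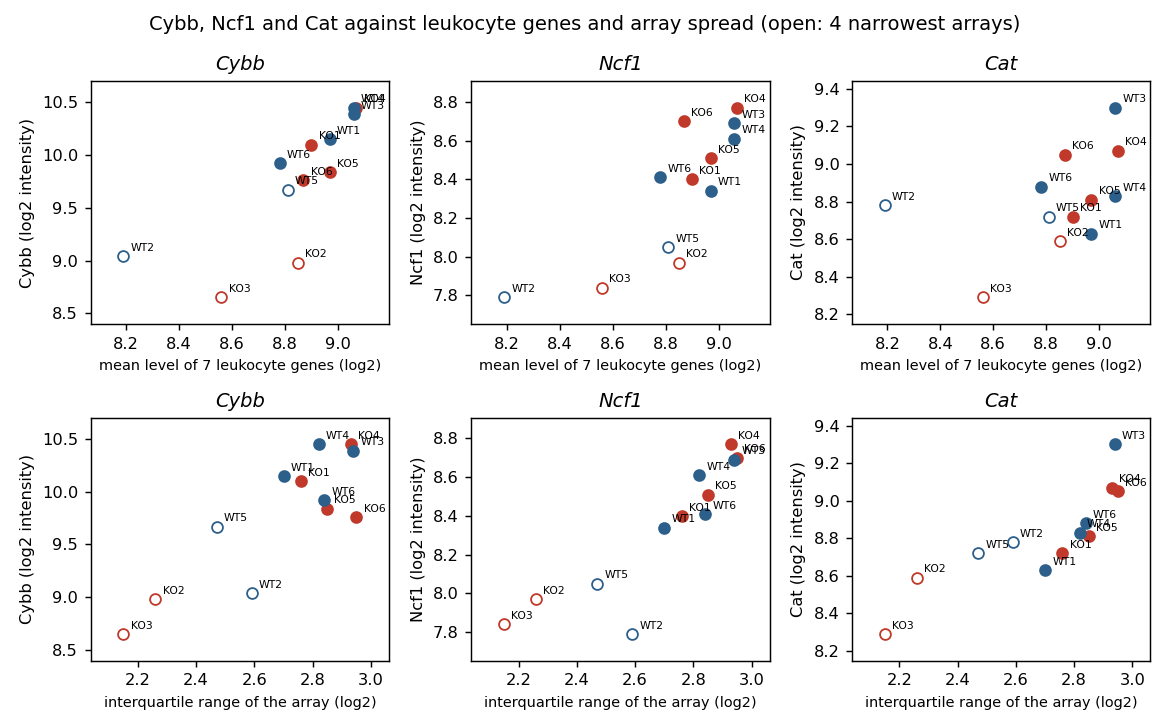
Log2 intensity of Cybb, Ncf1 and Cat (vertical axes) in each tumour against the mean log2 level of 7 leukocyte genes (upper row) and the interquartile range of the array in log2 (lower row), with p62 KO hosts in red, WT hosts in blue and the 4 narrowest arrays open. Cybb and Ncf1 run with the leukocyte mean at r = 0.78 and 0.80, and all 3 genes run with the interquartile range at r = 0.84 to 0.89.

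The genes most like each member over the 12 tumours were sought among 19936 others by Pearson r. Those closest to Cybb were Trim12a (0.97), Dapp1 (0.96) and the lysosomal protease Ctss (0.96), with 0.93, 0.82 and 0.91 over the 8 other tumours. Ncf1 was followed most closely by Gnb4 (0.96), Pepd (0.96) and Rassf4 (0.95). Cyba was followed by Mrps23, Dctpp1 and Polr2g (0.93 each), and Ncf4 by Sertad3 (0.91), Itgb5 (0.89) and Uros (0.88). Nox4 ran with Ppp4r4 (0.89), Tom1l1 (0.88) and Znrf2 (0.88), which kept 0.86, 0.86 and 0.83 over the 8 tumours. Sod1 ran with Srp9 (0.95), Sec61b (0.94) and Unc13a (0.93), the last of which had 0.51 over the 8. Sod2 ran with the malate dehydrogenase Mdh2 (0.92), Rnf187 (0.92) and the ribosomal protein gene Rps3 (0.91). Cat ran with Ccdc130 (0.95), Trmt11 (0.94) and Trmt1 (0.93), and Gpx1 with Aarsd1 (0.84), Slc5a6 (0.83) and Coprs (0.82). These are the highest of many values and describe likeness alone.

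None of the other genes of the oxidase system was called either. Of 15 such genes measured, 14 were higher and 1 lower in KO-host tumours, where 57.2% of all probe sets were higher. None was called, 0 had an unadjusted p under 0.05 (2.39% of all probe sets), and the median difference was 0.04. In 9 of the 15 the highest KO-host tumour was KO host 2 or 3, both narrow arrays, whose part in the count was not tested. The same share over all genes was not computed. Several of the 15 stood low on the arrays, whose lower quartiles ran from 4.85 to 5.36. Nox1 averaged 4.57 in KO-host and 4.46 in WT-host tumours, Duox1 5.00 and 4.98, and Duox2 5.35 and 5.32. The highest lower quartiles were those of KO hosts 2 and 3, at 5.27 and 5.36. The haematopoietic GTPase gene Rac2, which completes the phagocyte enzyme, differed by 0.04 (interval -0.18 to 0.27). Its widely expressed relative Rac1 stood at 11.59 in both groups (interval of the difference -0.14 to 0.15) and is counted as higher at a difference of 0.00. Cybc1, which encodes a chaperone of gp91phox, differed by -0.11 (interval -0.35 to 0.14). Duoxa2, a maturation factor of the dual oxidase Duox2, differed by 0.11 (interval -0.13 to 0.36). Nox3, an oxidase of the inner ear, differed by 0.19 (interval -0.34 to 0.72), or -0.18 without KO hosts 2 and 3, at mean levels of 4.37 in KO-host and 4.19 in WT-host tumours, below the lower quartiles of the arrays.

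Among 25 further genes of peroxide and glutathione metabolism 23 were measured, of which 12 were higher and 11 lower with a median difference of 0.05 and 0 called. Over all probe sets 57.2% were higher and 0.00355% were called. Gclc, the catalytic subunit of the enzyme that limits glutathione synthesis, was the 1 gene of 23 with an unadjusted p under 0.05 in limma. Of all probe sets 2.39% had such a p, and 1.11% of all probe sets had it and were lower in KO-host tumours. Gclc ran from 8.02 through a median of 8.35 to 8.85 in KO-host tumours and from 8.57 through 8.89 to 9.73 in WT-host tumours, so that the groups overlapped. Its difference of -0.57 had an interval of -1.01 to -0.13 (limma, unadjusted p = 0.0151, adjusted p = 0.9935). It shrank to -0.40 without KO hosts 2 and 3, to -0.31 with array weights and to -0.22 without the 4 narrow arrays. Txnrd1, which reduces thioredoxin, differed by -0.20 (interval -0.49 to 0.08), or -0.04 without the 4 narrow arrays, and the peroxiredoxin Prdx1 by -0.04 (interval -0.34 to 0.26). The secreted dismutase Sod3 differed by -0.01 (interval -0.26 to 0.23) and the secreted peroxidase Gpx3 by 0.24 (interval -0.08 to 0.55). Gpx4, which reduces lipid peroxides, differed by 0.13 (interval -0.11 to 0.37) on its brightest probe set, at 7.55 against 7.42. Its other probe set, at 6.35 against 5.92, differed by 0.43 (limma, unadjusted p = 0.00777, adjusted p = 0.9935), so that its 2 probe sets gave different sizes.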

How the data were processed

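Total RNA of 12 tumours was extracted with a phenol reagent, amplified and labelled with biotin for 1 single-colour array each, per the labels' protocols. The values the authors deposited are on the log2 scale, 1 for each probe set and tumour. RMA (background correction, normalization and summary of probes) is named in the submitters' processing notes, its version is not. The array's scanner files and detection calls were not used here, and arrays have no counting depth, so that their number limits the precision.

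Of 34760 rows, 6568 with identifiers below the end of the table's first unbroken run of unannotated entries were taken as controls, and 28192 probe sets were tested, 21640 of them with 1 symbol, 1321 with several and 5231 with none. A gene stood for its brightest probe set over the 12 tumours. The 2 host groups were set against each other in R 4.3.3 by limma 3.58.1 (eBayes after lmFit, no covariate, two-sided), p-values were adjusted by Benjamini-Hochberg over all tested probe sets, and the threshold was 0.05. Intervals are 95% intervals of that fit, which was tested on simulated data. Each tumour came from its own mouse, per the labels. Correlations used 100000 permutations, two-sided. The members and gene lists were chosen with earlier results of these data known. The rule for named genes took the 9 members, anchors set in the 2 further pathway lists (among them Rac2, Cybc1, Rac1; Sod3, Gpx3, Gpx4, Prdx1, Txnrd1, Gclc), the first 2 genes of each marker list, the 3 genes of smallest unadjusted p in each of these lists, and the 3 genes most like each member. To keep to the members, many marker genes it took are given only through their list's counts and mean. Erythroid markers (2 of 7 measured) and adipocyte markers (7 measured, 6 higher, 1 lower) had 0 called, where 57.2% of all probe sets were higher and 0.00355% were called. Alternatives were other scalings, filters and probe set rules, array weights, a replicate block, and tumours left out. The relation to the interquartile range of the arrays and the values over 8 tumours for the genes most like each member were added after the data were seen. So were the values of Nox1, Duox1, Duox2, Ngp, Ltf, Camp and Retnlg. Plots were drawn with matplotlib 3.10.9. One gene of the oxidase list is not reported here.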

Additional observations from a re-analysis of the deposited data

Results flagged for a closer look

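One tumour lay far from the other 5 of its host group in 9 of the 74 sets of values looked at, where chance gives about 1 in 20 for independent sets. The sets here share tumours, and Ptprc is itself among the leukocyte genes, so that the count cannot be read against that rate. Sod1 stood at 11.65 in KO host 2, against 11.06 to 11.16 in the other KO-host tumours, and at 11.07 in WT host 6, against 11.14 to 11.18 in the other WT-host tumours. Sod3 stood at 6.29 in KO host 4, below the next tumour at 6.55, and at 7.0 in WT host 2, above the next at 6.58. Prdx1 stood at 10.08 in WT host 3, above the next WT-host tumour at 9.72. WT host 2 was the low tumour of its group in Ptprc, at 8.70 against 9.51 in the next, and in the mean levels of the leukocyte genes (8.19 against 8.78), the endothelial genes (6.96 against 7.34) and the smooth muscle genes (6.13 against 6.34).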

How the results depend on the processing

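None of the 9 members was called under any of the 24 alternatives run, and none of the 20 other named genes either. The median difference of the subunits (-0.05 to 0.13), of the enzymes (-0.01 to 0.10) and the first minus the second (-0.13 to 0.08) each took both signs over these alternatives, so that none has a settled direction. Of 216 values of members under alternatives, 198 kept their direction. The count of probe sets called fell from 1 to 0 with all rows of the table, without KO hosts 2 and 3 and with the replicate block, lay at 0 to 1 over the tumours left out in turn, and was 675 at an unadjusted p under 0.05. Without KO hosts 2 and 3 the differences of Cybb (0.10), Cat (0.06), Sod1 (-0.03), Gpx1 (-0.01), Adgre1 (0.27), Cybc1 (0.00), Nox3 (-0.18), Prdx1 (0.01), Ptprc (0.09) and Rac1 (-0.01) turned sign. Without these and WT hosts 2 and 5 those of Cyba (-0.02), Ncf4 (-0.01), Sod1 (-0.02), Cat (0.00), Gpx1 (-0.04), Adgre1 (0.00), Rac1 (-0.01) and Sod3 (0.07) did. With array weights it was those of Cat (0.07), Sod1 (-0.01), Adgre1 (0.13), Nox3 (-0.06), Prdx1 (0.04), Rac1 (-0.01) and Sod3 (0.01), with quantile normalization Prdx1 (0.01) and Rac1 (-0.01), with a common median Rac1 (-0.03), and with the interquartile range as a covariate Adgre1 (0.01). The cause was not tested. Leaving out each tumour in turn gave differences on both sides of 0, or at 0, in Sod1 (-0.02 to 0.09), Rac1 (-0.01 to 0.02), Prdx1 (-0.11 to 0.07), Adgre1 (-0.29 to 0.08), Ptprc (-0.25 to 0.03), Ncf1 (-0.05 to 0.15), Rac2 (0.00 to 0.10), Sod3 (-0.06 to 0.07), Ncf4 (0.00 to 0.22), Gpx1 (0.00 to 0.13) and Cyba (-0.05 to 0.19). With the replicate number as a block, Nox4 differed by -0.42 with an unadjusted p of 0.0189 and an adjusted p of 0.9992 in limma, 0 probe sets were called and 524 had an unadjusted p under 0.05. The labels name no pairing of the tumours by number. Same-numbered tumours had correlations of -0.55 to 0.37, 4 of 6 over 0.1, and 0 of 6 correlated best with their own number. Such correlations cannot decide whether tumours of the same number shared a batch, since the spread of the arrays can also move them. Without KO host 5, KO host 6 or WT host 1, Nox4 had an unadjusted p of 0.00785, 0.0294 and 0.0452, and over all alternatives the smallest adjusted p of any member was 0.6579.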
